A study of Mus musculus with 7 samples.

Results

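The 9 genes described here act in cholesterol export and lipoprotein remodelling, in making or sensing oxidised cholesterol, or in cholesterol uptake and storage. They are the liver X receptors Nr1h2 and Nr1h3, the exporters Abca1 and Abcg1, the lipid transfer protein gene Pltp and the ubiquitin ligase Mylip. The others are the esterifying enzyme Soat1, the lipid droplet coat gene Plin2 and the oxysterol-making enzyme Ch25h. All 9 were chosen by gene symbol for their roles in cholesterol handling, with earlier results of these data known. The deposited table holds 24537 genes. Each has 1 row, and all 9 were expressed well enough to be tested.

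Cells load with cholesterol when they take up lipoproteins, myelin or dying cells, and microglia, the resident macrophages of the brain, do this throughout life. Excess cholesterol is partly oxidised to oxysterols, which bind the liver X receptors (LXR), nuclear receptors that sit on DNA as a dimer with a retinoid X receptor. Ligand-bound LXR switches on the exporters that pass cholesterol to lipoproteins and Mylip, which limits the uptake of more cholesterol, while Soat1 turns cholesterol that stays in the cell into esters that are kept in droplets coated by Plin2.

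The RNA came from microglia (CD45int CX3CR1+ by cell sorting) of C57BL/6 mice carrying 005 glioblastoma, an implanted mouse glioma, at day 35 after implantation. The first group had CD4 depletion with anti-CTLA4, an antibody that blocks a brake on T cells (3 libraries), the second anti-CTLA4 without depletion (2 libraries) and the third control IgG (2 libraries). All mice bore tumours, so there is no group of healthy brain; sex, antibody doses and whether a library is 1 animal or a pool are not given in the labels. The comparisons ask how these genes stood after CTLA-4 blockade and how they stood when CD4 depletion was added to it. No group had CD4 depletion alone, so an effect of depletion by itself cannot be told apart from an effect on the response to anti-CTLA4. Since nothing says that replicates are separate animals, p-values measure the spread between libraries, which may be technical.

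Before the results, 3 features of the libraries matter. The sample-sheet numbers in the column names of both libraries labelled anti-CTLA4 (29 and 30) differ from those in their descriptions (10 and 11). In the command kept in the table's header, MCTLA41 and MCTLA42 carry 10 and 11, and 29 and 30 stand beside libraries named MIFNGRKO1 and MIFNGRKO2. Which libraries these 2 columns hold is not settled by the sources used here. Each rise or fall below that involves labelled anti-CTLA4 rests on them, so these columns are called the libraries labelled anti-CTLA4 throughout. Depth was even: the smallest values step in whole reads, which imply 84200000 to 107600000 reads per library, and the fewest reads behind any value of the 9 genes are 201, for Nr1h3. All 16 homeostatic microglia markers were present in every library at 1 FPKM (fragments per kilobase of transcript, scaled to the reads of the library) or more, and 8 T cell markers summed to between 2.91 and 5.02 FPKM. Other cells differed between libraries. Monocyte markers summed to 1316 FPKM in replicate 1 of CD4 depletion with anti-CTLA4 and to between 48.4 and 85.0 FPKM in the other 6 libraries, and border-associated macrophage and neutrophil markers were also highest there (180 and 539 FPKM). Markers of oligodendrocyte precursor-like and tumour cells summed to between 202 and 678 FPKM after CD4 depletion. They summed to 103 and 44.7 FPKM in the libraries labelled anti-CTLA4 and to 847 and 1127 FPKM with IgG. Endothelial, mural and matrix markers summed to between 60.6 and 179, to 412 and 212, and to 27.0 and 38.1 FPKM in that order. Astrocyte markers summed to between 194 and 324 FPKM, to 119 and 76.8 FPKM, and to 238 and 308 FPKM. The matrix genes are Col1a1, Col3a1, Dcn and Lum. Dcn was at 137 and 73.7 FPKM in the libraries labelled anti-CTLA4 and at 3.61 and 7.33 FPKM with IgG. Among endothelial genes, Cldn5 was at 18.4 and 13.2 FPKM against 4.47 and 5.14 FPKM with IgG. Pecam1 was at 4.99 and 7.11 FPKM against 2.52 and 4.35 FPKM, and Flt1 was not higher than with IgG. Of 4 Y-linked genes, Ddx3y, Uty and Eif2s3y were higher in all 3 libraries of CD4 depletion than in any of the other 4, and Kdm5d was not. Eif2s3y was at 6.86, 4.92 and 4.34 FPKM after CD4 depletion, at 1.06 and 0.335 FPKM in the libraries labelled anti-CTLA4, and at 0.896 and 0.947 FPKM with IgG. Sex is not given in the labels. A difference in sex therefore cannot be told apart from CD4 depletion in the comparisons that include that group. In RNA from sorted cells, a change in the mix of cells and a change in RNA per cell cannot be told apart.

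Of the promoters of the 9 genes, 3 are printed, those in which any of the searched elements was found. The sequences are the 250 bases before the gene's start in RefSeq (GRCm38.p6), 5′ to 3′ on the gene's own strand; that start can differ from the one in the deposited table, as it does for Ch25h. RefSeq held 9 sequences for 8 of the 9 genes, 2 of them for Nr1h3; no entry was used for Abcg1. Capitals mark matches to an LXR element, an E-box or a TATA box.
Abca1, chr4:53159896-53160145, minus strand: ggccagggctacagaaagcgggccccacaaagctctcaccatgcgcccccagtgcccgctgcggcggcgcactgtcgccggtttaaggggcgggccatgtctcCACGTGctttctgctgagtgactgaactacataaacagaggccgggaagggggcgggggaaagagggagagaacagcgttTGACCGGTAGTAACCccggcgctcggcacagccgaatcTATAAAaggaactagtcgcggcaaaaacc
Mylip, chr13:45389492-45389741, plus strand: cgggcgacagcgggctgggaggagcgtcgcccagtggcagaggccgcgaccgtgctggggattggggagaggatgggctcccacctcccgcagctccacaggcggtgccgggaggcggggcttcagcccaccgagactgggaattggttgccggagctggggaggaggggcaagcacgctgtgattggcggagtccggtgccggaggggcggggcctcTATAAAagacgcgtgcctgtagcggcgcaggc
Ch25h, chr19:34475149-34475398, minus strand: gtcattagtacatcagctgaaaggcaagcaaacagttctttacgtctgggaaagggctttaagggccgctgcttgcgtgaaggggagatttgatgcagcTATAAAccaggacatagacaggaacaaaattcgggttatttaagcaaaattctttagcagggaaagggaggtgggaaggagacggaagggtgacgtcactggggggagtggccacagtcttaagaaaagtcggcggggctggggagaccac
The Abca1 promoter holds an LXR element, searched on both strands as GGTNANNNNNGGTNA, at 67 to 53 bases before the start. It reads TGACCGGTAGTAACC on the gene's strand and GGTTACTACCGGTCA on the other. Only 0.62% of 32851 mouse promoters of this length hold these letters, and of the 9 sequences searched Abca1's is the only one that does. The E-box (CACGTG), at 147 to 142 bases, occurs in 6.02% of promoters, and the TATA box (TATAAA), at 29 to 24 bases, in 12.4%. Mylip has a TATA box at 32 to 27 bases and Ch25h one at 151 to 146 bases. The other 6 sequences held none of these letters, and no match was found in any of the 9 for the full LXR element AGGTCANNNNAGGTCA or the gamma-activated sequence TTCNNNGAA, which says nothing of sites elsewhere.

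Neither receptor gene passed the test in any comparison with the values as deposited. Nr1h2, which encodes LXR beta, the form found in most tissues, lies on chromosome 7 (mm10, 44549616 to 44553965, minus strand). It was at 21.3, 22.1 and 24.3 FPKM after CD4 depletion with anti-CTLA4, at 21.4 and 21.2 FPKM in the libraries labelled anti-CTLA4, and at 20.3 and 21.97 FPKM with IgG. All 7 values lie within a narrow band and the groups overlap. Tested with limma on log2(FPKM + 1), the libraries labelled anti-CTLA4 differed from IgG by 0.01 ± 0.14 (log2 fold change ± SE, adjusted p = 0.948), with a 95% interval of -0.32 to 0.35.

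Nr1h3, which encodes LXR alpha, the form associated with lipid-loaded macrophages and liver, was the lowest of the 9 genes in 6 of the 7 libraries (chromosome 2, 91184061 to 91195116, minus strand). It was at 2.37, 2.16 and 4.04 FPKM after CD4 depletion with anti-CTLA4, at 1.97 and 1.25 FPKM in the libraries labelled anti-CTLA4, and at 1.93 and 2.43 FPKM with IgG. Replicate 3 of CD4 depletion is the high library, and the 3 libraries of that group all lie above both labelled anti-CTLA4. That difference of 0.55 ± 0.26 did not pass (limma adjusted p = 0.141), nor did the one between labelled anti-CTLA4 and IgG, at -0.30 ± 0.28 (adjusted p = 0.426). Nr1h3 made up 10.002%, 8.90% and 14.3% of the summed FPKM of the receptor pair after CD4 depletion, 8.40% and 5.55% in the libraries labelled anti-CTLA4, and 8.69% and 9.96% with IgG, so the receptor RNA was mostly Nr1h2 in every library.

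**Figure D1:**
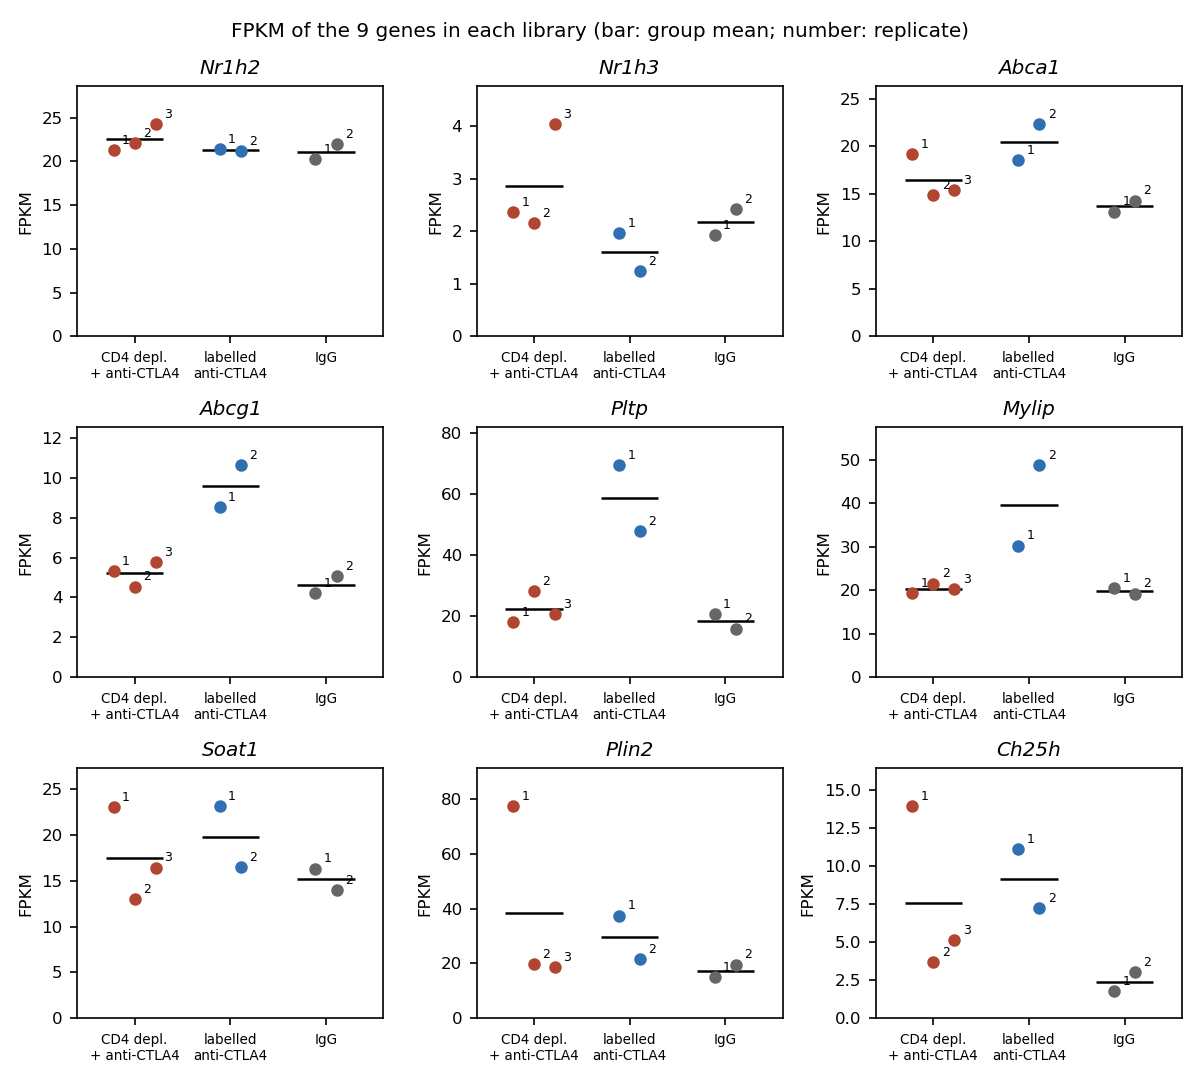
FPKM of the 9 genes (vertical axes, each from 0) in each of the 7 libraries, by group; points are libraries numbered by replicate and bars are group means. Abcg1, Pltp and Mylip are highest in both libraries labelled anti-CTLA4, and Plin2 and Ch25h are highest in replicate 1 of CD4 depletion with anti-CTLA4.

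Of the exporters, Abcg1 passed the test and Abca1 did not. Abcg1, which moves cholesterol onto mature high density lipoprotein, lies on chromosome 17 (31057694 to 31117981, plus strand). It was at 5.32, 4.54 and 5.77 FPKM after CD4 depletion with anti-CTLA4, at 8.51 and 10.6 FPKM in the libraries labelled anti-CTLA4, and at 4.23 and 5.06 FPKM with IgG. Both libraries labelled anti-CTLA4 lie above all 5 others, while the other groups overlap. Abcg1 rose by 0.90 ± 0.19 on the log2 scale in the libraries labelled anti-CTLA4 against IgG (limma adjusted p = 0.0146). It fell by 0.76 ± 0.18 after CD4 depletion with anti-CTLA4 against labelled anti-CTLA4 (adjusted p = 0.0226).

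Abca1, which loads cholesterol and phospholipid onto lipid-poor apolipoproteins, lies on chromosome 4 (53030789 to 53159895, minus strand), just downstream of the LXR element printed above. It was at 19.2, 14.9 and 15.4 FPKM after CD4 depletion with anti-CTLA4, at 18.6 and 22.3 FPKM in the libraries labelled anti-CTLA4, and at 13.1 and 14.3 FPKM with IgG. IgG holds the lowest 2 values, and replicate 1 of CD4 depletion lies among the libraries labelled anti-CTLA4. The log2 difference of 0.54 ± 0.18 between labelled anti-CTLA4 and IgG fell just short of the threshold (limma adjusted p = 0.0505). It passed with other scalings of the libraries, at 0.89 with median-of-ratios scaling (adjusted p = 0.0212) and at 0.79 with quantile normalization (adjusted p = 0.0273), and turned to -0.36 when libraries were scaled to homeostatic microglia markers (adjusted p = 0.521). CD4 depletion with anti-CTLA4 differed from labelled anti-CTLA4 by -0.30 ± 0.17 (adjusted p = 0.199).

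Pltp encodes the phospholipid transfer protein, which remodels high density lipoprotein particles (chromosome 2, 164839518 to 164857708, minus strand). Its row was at 18.2, 28.3 and 20.8 FPKM after CD4 depletion with anti-CTLA4, at 69.5 and 47.9 FPKM in the libraries labelled anti-CTLA4, and at 20.7 and 16.0 FPKM with IgG. Both libraries labelled anti-CTLA4 lie above the other 5. The row rose by 1.61 ± 0.27 in the libraries labelled anti-CTLA4 against IgG (limma adjusted p = 0.00995) and fell by 1.35 ± 0.24 after CD4 depletion with anti-CTLA4 against labelled anti-CTLA4 (adjusted p = 0.0144), which are the largest changes among the 9 genes on the log2(FPKM + 1) scale; by the ratio of mean FPKM, Ch25h changed more than Pltp in the first (3.804 and 3.20).

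These reads cannot be assigned to Pltp alone. Its 3′ end overlaps that of Ctsa, the gene of the lysosomal protease cathepsin A, on the opposite strand, and reads were counted on both strands. In the GENCODE M21 annotation 495 of the 1809 exonic bases of Pltp, 27.4%, are shared with the transcript of Ctsa in the table. Ctsa was at 196, 152 and 177 FPKM after CD4 depletion with anti-CTLA4, at 358 and 308 FPKM in the libraries labelled anti-CTLA4, and at 126 and 134 FPKM with IgG. Even coverage of that transcript would by itself give the Pltp row between 42.0 and 54.3, then 99.0 and 85.3, then 34.9 and 37.0 FPKM in the same groups, more than was measured in each of the 7 libraries. With the shorter overlap of the other Ctsa isoform (311 bases) these become 26.4 to 34.1, 62.2 and 53.6, and 21.96 and 23.3 FPKM. Ctsa rose by 1.35 in the libraries labelled anti-CTLA4 against IgG (limma adjusted p = 0.00936) and fell by 0.93 after CD4 depletion with anti-CTLA4 against labelled anti-CTLA4 (adjusted p = 0.0158). Changes in the Pltp row and in Ctsa therefore cannot be told apart.

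Mylip, also called Idol, encodes a ubiquitin ligase, induced by LXR, that limits cholesterol uptake (chromosome 13, 45389742 to 45411940, plus strand). It was at 19.4, 21.6 and 20.2 FPKM after CD4 depletion with anti-CTLA4, at 30.3 and 48.8 FPKM in the libraries labelled anti-CTLA4, and at 20.4 and 19.2 FPKM with IgG. The 5 libraries outside labelled anti-CTLA4 lie between 19.2 and 21.6 FPKM, and replicate 2 of labelled anti-CTLA4 is 1.61 times replicate 1. Mylip rose by 0.92 ± 0.22 in the libraries labelled anti-CTLA4 against IgG (limma adjusted p = 0.0196) and fell by 0.88 ± 0.20 after CD4 depletion with anti-CTLA4 against labelled anti-CTLA4 (adjusted p = 0.0219).

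Neither of the storage genes passed in any comparison with the values as deposited, and both varied most within the group of CD4 depletion. Soat1, the enzyme that esterifies cholesterol in the endoplasmic reticulum, was at 23.0, 13.01 and 16.4 FPKM after CD4 depletion with anti-CTLA4, at 23.1 and 16.5 FPKM in the libraries labelled anti-CTLA4, and at 16.3 and 14.0 FPKM with IgG (chromosome 1, 156428108 to 156474328, minus strand). The highest library of CD4 depletion, replicate 1, is 1.77 times the lowest. The difference of 0.35 ± 0.28 between labelled anti-CTLA4 and IgG did not pass (limma adjusted p = 0.339), and its interval runs from -0.30 to 1.00. The ratio of Abca1 to Soat1 FPKM sets the RNA of an exporter against that of an esterifying enzyme and measures neither process. It was 0.833, 1.14 and 0.937 after CD4 depletion, 0.803 and 1.35 in the libraries labelled anti-CTLA4 and 0.804 and 1.02 with IgG. All 3 groups overlapped.

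Plin2, which coats lipid droplets and whose RNA rises in fat-laden macrophages, showed the widest range in FPKM of the 9 genes (chromosome 4, 86656565 to 86670059, minus strand). It was at 77.3, 19.7 and 18.7 FPKM after CD4 depletion with anti-CTLA4, at 37.5 and 21.6 FPKM in the libraries labelled anti-CTLA4, and at 15.1 and 19.5 FPKM with IgG. One library, replicate 1 of CD4 depletion, stands apart at 4.14 times the lowest of its group, and it is the library with the high monocyte, border-associated macrophage and neutrophil markers; the part these cells have in the value was not tested. No difference passed: labelled anti-CTLA4 against IgG was 0.70 ± 0.64 (limma adjusted p = 0.410), and CD4 depletion with anti-CTLA4 against IgG was 0.80 ± 0.59 (adjusted p = 0.735).

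Ch25h makes 25-hydroxycholesterol, an oxysterol that activates LXR, holds back sterol synthesis and is induced by interferons in macrophages (chromosome 19, 34473784 to 34475135, minus strand). It was at 13.9, 3.69 and 5.13 FPKM after CD4 depletion with anti-CTLA4, at 11.1 and 7.23 FPKM in the libraries labelled anti-CTLA4, and at 1.78 and 3.03 FPKM with IgG. IgG held the lowest 2 values, and replicate 1 of CD4 depletion was again the highest library, at 3.78 times the lowest of its group. Ch25h rose by 1.57 ± 0.52 in the libraries labelled anti-CTLA4 against IgG, at the edge of the threshold (limma adjusted p = 0.0484), and CD4 depletion with anti-CTLA4 differed from labelled anti-CTLA4 by -0.40 ± 0.48 (adjusted p = 0.534). Without replicate 1 of CD4 depletion that last difference was -0.89 (adjusted p = 0.0395), while without replicate 3 the rise against IgG did not pass (adjusted p = 0.0677). A non-coding gene on the opposite strand, Gm26902, shares 159 of the exonic bases of Ch25h, and its reads cannot be told apart either.

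**Figure D2:**
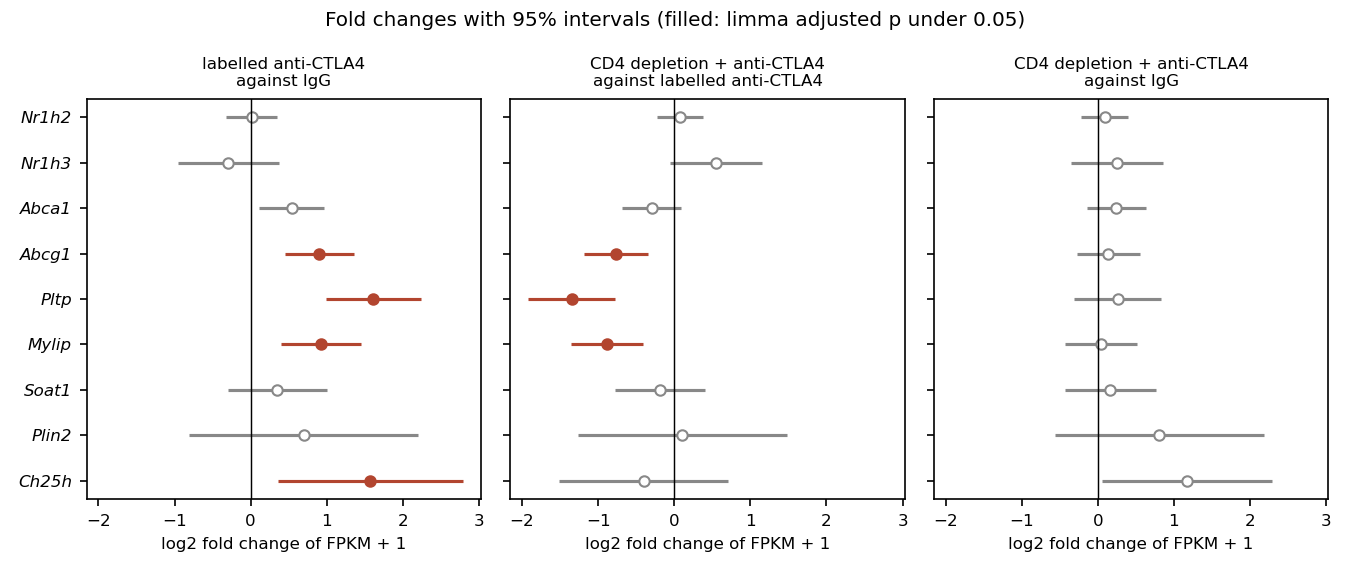
Log2 fold changes of FPKM + 1 (horizontal axes) of the 9 genes in the 3 comparisons, with 95% intervals from limma; filled red points passed an adjusted p of 0.05. Abcg1, Pltp, Mylip and Ch25h passed in labelled anti-CTLA4 against IgG, the first 3 of these passed in the other direction in CD4 depletion with anti-CTLA4 against labelled anti-CTLA4, and none passed against IgG after CD4 depletion; Abcg1 and Mylip change sign in the middle comparison when libraries are scaled to homeostatic markers.

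Counted together, 4 of the 9 genes rose in the libraries labelled anti-CTLA4 against IgG and none fell (limma adjusted p under 0.05). The background was large: 38% of 13028 tested genes passed, 9.29% higher and 28.8% lower. With the values as deposited, these 4 thus went against the prevailing direction. That direction depended on scaling: with median-of-ratios scaling or quantile normalization, higher and lower calls over all genes were close in number. The median log2 fold change was 0.70 over the 9 genes and -0.31 over all tested genes. For 7 of the 9 both libraries labelled anti-CTLA4 lay above both IgG libraries, which was so for 22.8% of all genes, while 54.1% lay lower and 76.9% did not overlap in either direction. Without Pltp, whose reads overlap Ctsa, 3 of 8 rose.

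After CD4 depletion with anti-CTLA4, 3 of the 9 genes (Abcg1, Pltp and Mylip) fell against labelled anti-CTLA4 and none rose, where 29.4% of all tested genes passed, 6.59% lower and 22.8% higher. The medians were -0.30 over the 9 genes and 0.27 over all genes, and 4 of the 9 did not overlap, 3 of them lower, where 60.5% of all genes did not overlap and 15.7% lay lower (44.7% higher). Without Pltp, 2 of 8 fell. Here too, higher and lower calls over all genes were close in number with median-of-ratios scaling or quantile normalization. This comparison shares the libraries labelled anti-CTLA4 with the previous one, so their opposite signs are not independent.

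Between CD4 depletion with anti-CTLA4 and IgG, none of the 9 genes passed, and 0% of the 13028 genes did (limma). The fold changes use neither library labelled anti-CTLA4, but the spread behind the p-values and intervals came from the libraries of all 3 groups. An unadjusted p under 0.05 was seen for 851 genes and for 1 of the 9. That gene was Ch25h, at 1.17 ± 0.48 with an interval of 0.06 to 2.29 (limma adjusted p = 0.710). The log2 differences of the other 8 were between 0.04, for Mylip, and 0.80, for Plin2. The intervals bound the changes of Mylip to between -0.44 and 0.51, of Abcg1 to between -0.28 and 0.55 and of Abca1 to between -0.14 and 0.63. For Abca1 and Ch25h all 3 libraries of CD4 depletion lay above both IgG libraries, where 11% of all genes lay higher, 16.2% lower and 27.2% did not overlap in either direction.

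These calls rest on few libraries. In labelled anti-CTLA4 against IgG, none of the 9 genes passed without replicate 2 of labelled anti-CTLA4, without replicate 1 of IgG or without replicate 2 of IgG, while the log2 fold changes of Abcg1, Pltp, Mylip and Ch25h stayed positive, at 0.76 to 1.05, 1.35 to 1.88, 0.59 to 1.26 and 1.30 to 1.85 over all libraries left out. Against labelled anti-CTLA4, CD4 depletion with anti-CTLA4 gave 0 of the 9 without replicate 2 of labelled anti-CTLA4 and 1, Pltp, on leaving out replicate 2 or replicate 3 of CD4 depletion.

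The scaling of the libraries decided the sign for several genes. Homeostatic microglia markers summed to between 4296 and 7012 FPKM after CD4 depletion with anti-CTLA4, to 9420 and 13748 FPKM in the libraries labelled anti-CTLA4 and to 6241 and 5052 FPKM with IgG, so 5 of the 16 markers rose in labelled anti-CTLA4 against IgG (median 0.84). When every library was scaled to these markers, none of the 9 genes passed in that comparison. Pltp was then at 0.69, Ch25h at 0.79, Abcg1 at 0.07 and Mylip at 0.0029, while Abca1, Soat1, Plin2 and Nr1h2 changed sign to -0.36, -0.54, -0.21 and -0.89. The median of all genes moved to -1.02 under this scaling and that of the 9 genes to -0.21. The same scaling, in CD4 depletion with anti-CTLA4 against labelled anti-CTLA4, turned Abcg1 to 0.07 and Mylip to 0.04, left Pltp at -0.42, and let Nr1h2 (0.98, limma adjusted p = 0.0477) and Nr1h3 (1.11, adjusted p = 0.0156) pass as higher, with the median of all genes at 0.98. Median-of-ratios scaling and quantile normalization kept the 4 rises and the 3 falls.

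**Figure D3:**
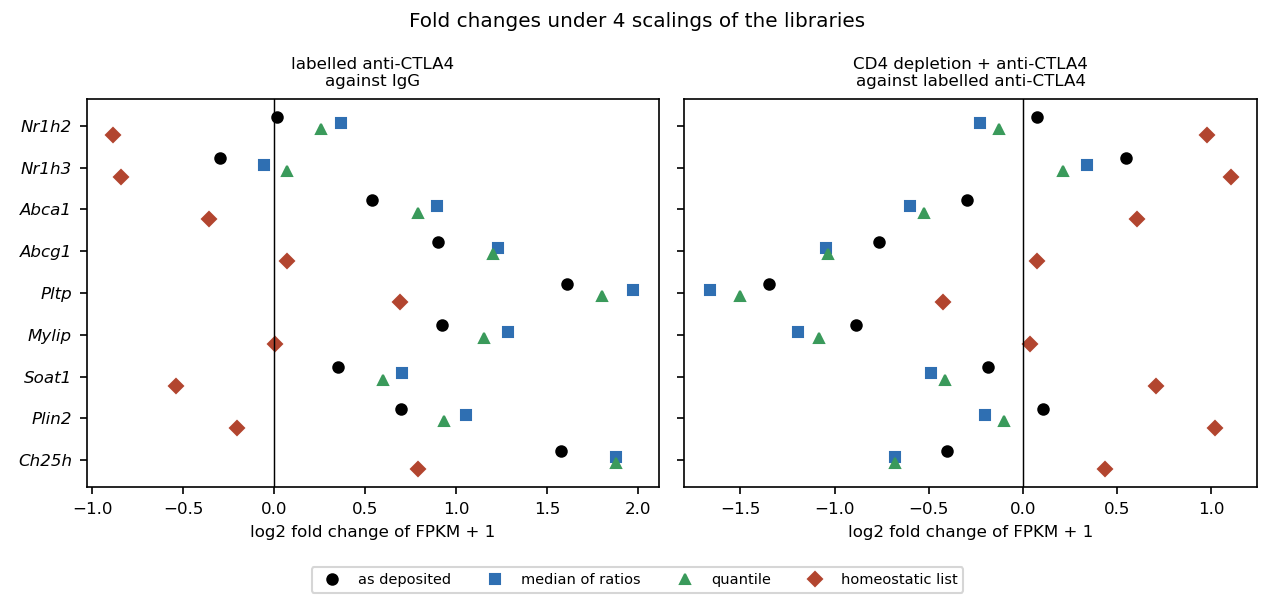
Log2 fold changes of FPKM + 1 (horizontal axes) of the 9 genes with the values as deposited and under 3 other scalings, in 2 comparisons. Scaling to the homeostatic markers (red diamonds) moves Abcg1 and Mylip to near 0 in both. The Pltp row keeps its sign under all 4 scalings, but its changes cannot be told apart from those of Ctsa.

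The other genes of the pathway are read against the same background: 9.29% of all tested genes rose and 28.8% fell in labelled anti-CTLA4 against IgG, with a median of -0.31, and 22.8% rose and 6.59% fell in CD4 depletion with anti-CTLA4 against labelled anti-CTLA4, with a median of 0.27. Of 8 tested LXR partners and co-regulators, 3 rose in the libraries labelled anti-CTLA4 against IgG and none fell, with a median of 0.05 (limma). They were the coactivator Ncoa3 at 0.92, the corepressor Nrip1 at 0.90 and the retinoid X receptor gene Rxrb at 0.45. After CD4 depletion with anti-CTLA4, 2 fell against labelled anti-CTLA4, Ncoa3 by 0.65 and Rxrb by 0.45. With homeostatic scaling the partners' direction turned, to 4 lower in the first comparison and 4 higher in the second.

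Among 17 other tested LXR target genes, 1 rose and 6 fell in labelled anti-CTLA4 against IgG (median -0.47), where 9.29% of all genes rose and 28.8% fell. The 4 falls with the smallest p were all in fatty acid synthesis, elongation and desaturation: Scd1 fell by 1.75, Fasn by 1.89, Scd2 by 2.09 and Elovl5 by 1.62. Set against labelled anti-CTLA4, CD4 depletion with anti-CTLA4 had 5 higher and 1 lower (median 0.26, or -0.05 with median-of-ratios scaling), among them Scd1 at 1.47, Scd2 at 1.58, Elovl5 at 1.37 and Cd38, an enzyme that breaks down NAD, at 2.73. Apoe, the apolipoprotein that accepts cholesterol from Abca1 in brain, was chosen after its values were seen. It was at 4162, 604 and 2247 FPKM after CD4 depletion with anti-CTLA4, at 4417 and 1368 FPKM in the libraries labelled anti-CTLA4, and at 365 and 1246 FPKM with IgG. Both libraries labelled anti-CTLA4 lie above IgG, the spread within each group is wide, and the difference of 1.86 ± 1.02 did not pass (limma adjusted p = 0.177).

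Of 4 tested genes of oxysterol metabolism, 3 rose and 1 fell in labelled anti-CTLA4 against IgG, with a median of 0.82 that turned to -0.08 under homeostatic scaling. Median-of-ratios scaling and quantile normalization gave 3 rises and 0 falls. Cyp27a1, which makes 27-hydroxycholesterol, another LXR ligand, was at 8.99, 7.45 and 11.2 FPKM after CD4 depletion with anti-CTLA4, at 21.1 and 24.6 FPKM in the libraries labelled anti-CTLA4, and at 4.01 and 6.33 FPKM with IgG. The 3 groups do not overlap, with labelled anti-CTLA4 highest and IgG lowest. Cyp27a1 rose by 1.97 against IgG (limma adjusted p = 0.00936) and fell by 1.24 after CD4 depletion with anti-CTLA4 against labelled anti-CTLA4 (adjusted p = 0.0146). Gpr183, a receptor for dihydroxylated oxysterols, rose by 0.95 and Hsd3b7, which clears them, rose by 0.69 in labelled anti-CTLA4 against IgG, while Cyp7b1, which hydroxylates 25- and 27-hydroxycholesterol further, fell by 1.15. After CD4 depletion with anti-CTLA4, Gpr183 fell by 0.79 and Cyp7b1 rose by 1.98 against labelled anti-CTLA4.

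Of 18 tested genes of cholesterol transport and ester hydrolysis, 3 rose and 2 fell in labelled anti-CTLA4 against IgG, with a median of -0.16 that becomes 0.18 with median-of-ratios scaling. The counts depended on scaling, at 6 higher and 1 lower with median-of-ratios scaling and 0 higher and 6 lower with homeostatic scaling. Stard3, which moves cholesterol out of late endosomes, rose by 0.76, and Lipa, the lysosomal lipase that frees cholesterol from esters, rose by 0.78. Scarb1, the receptor for high density lipoprotein, fell by 0.80 and Abcg4, an exporter best known in neurons and astrocytes, fell by 1.47. Scarb1, in CD4 depletion with anti-CTLA4 against labelled anti-CTLA4, rose by 0.79, and Stard3, Scarb2, a lysosomal membrane protein, and Lipa fell by 0.75, 0.63 and 0.54, a split of 1 higher and 3 lower that became 10 higher and 0 lower with homeostatic scaling.

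Of 21 tested lipid droplet genes, 5 rose and 3 fell in labelled anti-CTLA4 against IgG (median 0.05, beside -0.31 for all genes). Cd36, a fatty acid and lipoprotein receptor, rose by 2.38 and Lipe, the hormone-sensitive lipase, by 0.79. Acsl3, which activates fatty acids on droplets, fell by 2.11 and Cideb, a droplet protein, by 1.12. CD4 depletion with anti-CTLA4 set against labelled anti-CTLA4 had 4 higher and 3 lower, with Acsl3 at 1.98, Cideb at 0.96 and Abhd5, the activator of triglyceride lipase, at 0.70, while Cd36 fell by 2.19. With homeostatic scaling the first comparison gave 1 higher and 9 lower, and the second 11 higher and 1 lower; with median-of-ratios scaling the second gave 2 higher and 6 lower.

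Sterol synthesis and uptake is the programme that cells run when cholesterol is short. Of 26 tested genes, 13 fell and 1 rose in the libraries labelled anti-CTLA4 against IgG, with a median of -0.82 beside -0.31 for all genes (limma). Srebf2, the gene of the transcription factor that drives the programme, fell by 1.31 ± 0.24, with group means of 9.46 FPKM in labelled anti-CTLA4 and 24.4 FPKM with IgG. Cyp51 and Hsd17b7, enzymes that shape lanosterol into cholesterol, fell by 1.23 and 1.22, and Acat2, which makes acetoacetyl-CoA, fell by 1.75. In CD4 depletion with anti-CTLA4 against labelled anti-CTLA4, 14 rose and none fell (median 0.78), with Srebf2 at 1.40, Cyp51 at 1.36, Hsd17b7 at 1.11 and Sqle, which makes the epoxide of squalene, at 1.97. The falls numbered 7 with median-of-ratios scaling, 6 with quantile normalization and 21 with homeostatic scaling, and 0 without replicate 2 of labelled anti-CTLA4 or without either IgG library. The rises numbered 5, with 1 fall, under median-of-ratios scaling, and 0 without replicate 2 of labelled anti-CTLA4 and 4 and 3 without replicates 2 and 3 of CD4 depletion. Markers of tumour and precursor cells moved the same way, with 11 of 12 lower in labelled anti-CTLA4 against IgG (median -3.39) and 10 higher in CD4 depletion with anti-CTLA4 against it (median 2.06), and so did astrocyte markers, with 4 of 8 lower (median -1.20) and 3 higher (median 1.02). The part of these cells in the sterol and fatty acid genes was not tested. None of the genes of the 6 lists passed between CD4 depletion with anti-CTLA4 and IgG.

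**Figure D4:**
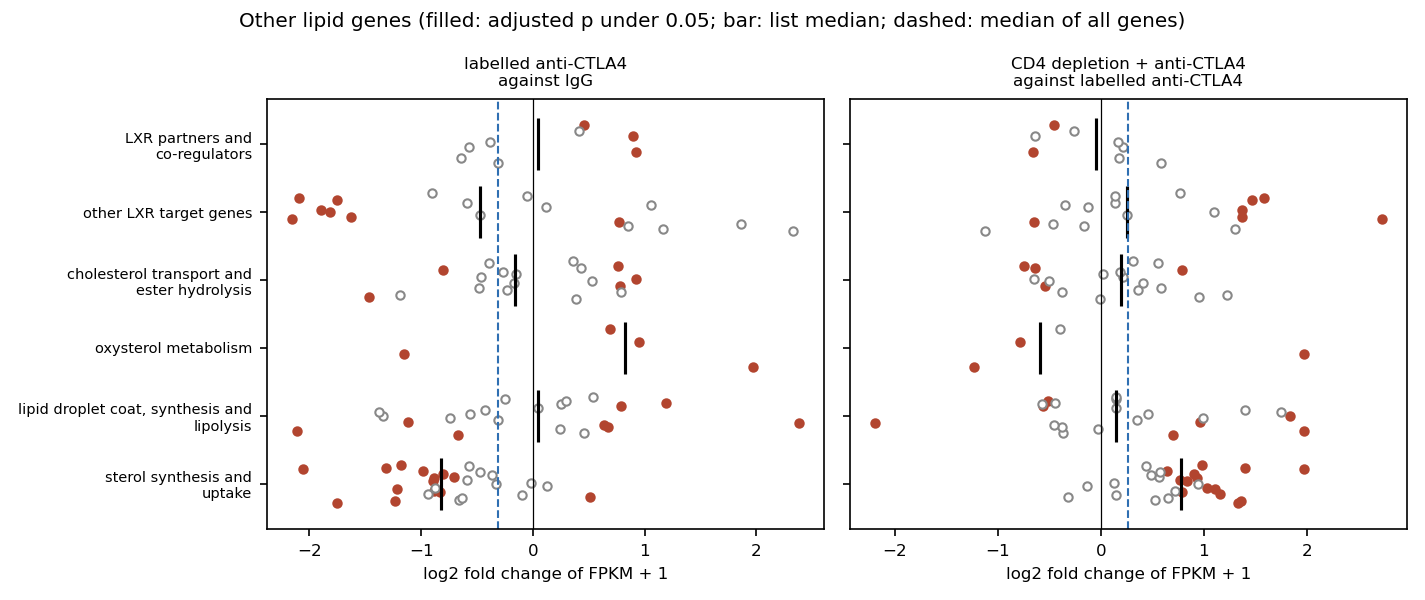
Log2 fold changes of FPKM + 1 (horizontal axes) of the tested genes of 6 pathway lists in 2 comparisons; filled points passed a limma adjusted p of 0.05, black bars are list medians and dashed lines the median of all tested genes. Sterol synthesis and uptake lies lower in labelled anti-CTLA4 against IgG (median -0.82) and higher in the other comparison (median 0.78); the oxysterol medians change sign under homeostatic scaling.

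Among the 9 genes, Abcg1 and Mylip had the profiles most like each other over the 7 libraries, at a root-mean-square difference of 0.18 between log2(FPKM + 1) profiles centred on their means, followed by Abca1 and Abcg1 at 0.23. Ch25h and Plin2, both highest in replicate 1 of CD4 depletion, were 0.39 apart. Of 7644 candidate genes with a mean of at least 5 FPKM, those nearest to Abca1 were Mob1a (0.05), Abr (0.06) and Naa60 (0.06), to Abcg1 Elf1 (0.05), Plekho1 (0.09) and Crlf3 (0.09), and to Mylip Pald1, Inpp5d (both 0.07) and Ptgs1 (0.08). Nr1h2 was nearest to Ilk, Alg5 and E2f4, Nr1h3 to Impa2, Med6 and Ttc7b, and Soat1 to Dnajb14, Tmem14c and Atp6v1g1, all within 0.11. Distances were larger for the 3 genes with the widest profiles: the nearest to Ch25h were Mir1198, Rab32 and Mir7676-2 (0.19 to 0.20), to Plin2 Mmp14, Cdkn1a and Gsn (all 0.20), and to Pltp Pnpla7 (0.23), Man1c1 and Trem2 (both 0.24). Mir1198 and Mir7676-2 carry microRNA names, and whether their reads come from microRNAs or from overlapping transcripts was not tested.

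**Figure D5:**
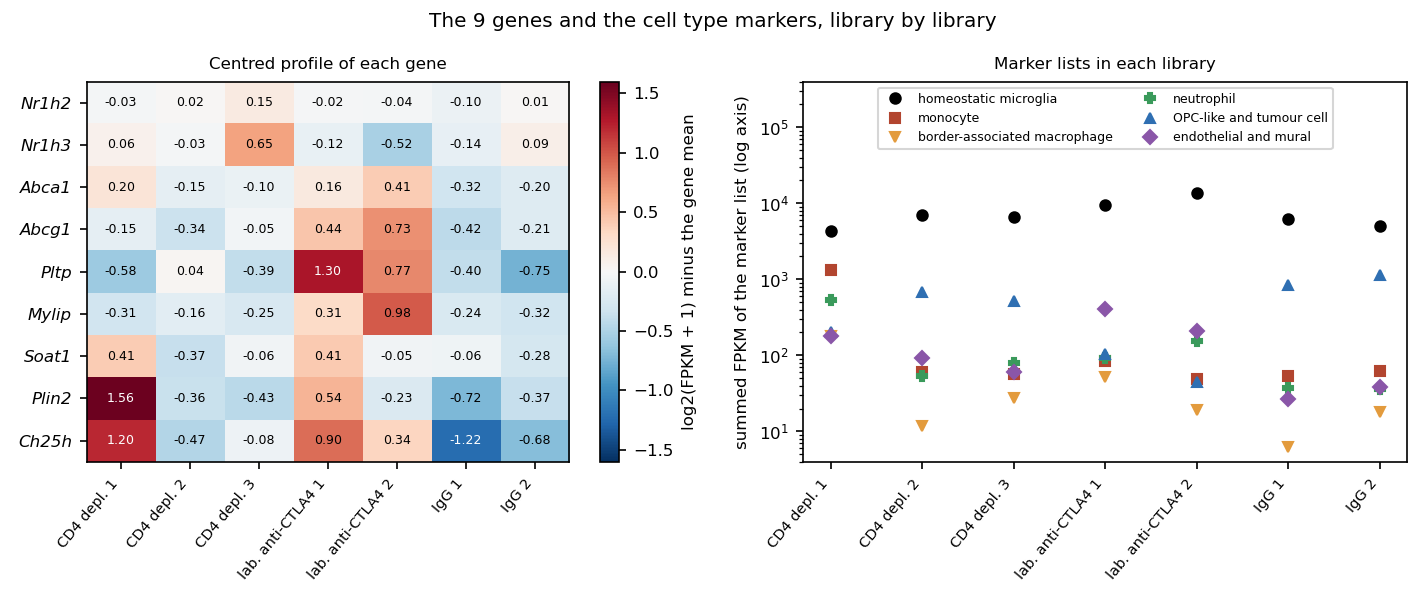
Left, log2(FPKM + 1) of each of the 9 genes minus its mean over the 7 libraries (colour and number); right, summed FPKM of 6 marker lists in each library on a log axis. Plin2 (1.56) and Ch25h (1.204) peak in replicate 1 of CD4 depletion with anti-CTLA4, where monocyte markers reach 1316 FPKM, and Mylip (0.98) and Abcg1 (0.73) in replicate 2 of labelled anti-CTLA4, where homeostatic markers reach 13748 FPKM.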

How the data were processed

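RNA-seq of sorted mouse microglia was read from 1 deposited table with 7 libraries. The values are FPKM made by the authors with HOMER from reads aligned to mm10, counted over exons on both strands with one transcript kept per gene, per the file headers; STAR, HOMER and DESeq2 are named in the submitters' processing notes, with no role or version. The command in the header lists 40 libraries; 5 of the 7 columns match one of them by name, and the 2 labelled anti-CTLA4 do not. FPKM divides by length and by library total, so a change in a few abundant genes shifts all others. Depth was inferred from low values of genes 200 to 800 bases long, where 267 to 301 values per library were all within 0.1 of a whole read; 49900000 to 61900000 reads fell in genes.

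Genes at 1 FPKM or more in 2 or more libraries (13028 of 24537) were fitted with limma 3.58.1 (R 4.3.3) on log2(FPKM + 1), in 1 model of the 3 groups with an intensity trend; p-values were Benjamini-Hochberg adjusted over all tested genes, threshold 0.05. Fold changes on this scale understate the change of low genes, and counting error is not modelled separately. The fit was tested on simulated data with known changes and independent noise for each gene. Such data hold no shifts shared by the genes of a library, so the test cannot show how these affect the calls. Median-of-ratios scaling, quantile normalization, scaling to the homeostatic markers, a pseudocount of 0.1, no filter, a filter at 5 FPKM, leaving out each library and a replicate block were tried. The members and lists were chosen with earlier results of these data known. By rule, all 9 genes were named, with up to 4 genes per list and comparison with the smallest p past the threshold, and the 3 genes with the most similar profile.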

Additional observations from a re-analysis of the deposited data

How the results depend on the processing

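The 9 genes' changes against labelled anti-CTLA4 or IgG depended on scaling and on single libraries. The number of genes past the threshold in labelled anti-CTLA4 against IgG was 4957, and with a replicate block 2665; leaving out single libraries gave 0 to 6075, with 0 without replicate 2 of labelled anti-CTLA4 or replicate 1 of IgG and 691 without replicate 2 of IgG. Of the 9 genes, 0 passed with homeostatic scaling, 2 with the block and 0 to 5 with libraries left out. In CD4 depletion with anti-CTLA4 against labelled anti-CTLA4 the number was 3827, against 2477 with no filter, 7600 with homeostatic scaling, 0 with the block and 0 to 5306 with libraries left out, with 0 without replicate 2 of labelled anti-CTLA4 and 1391 and 987 without replicates 2 and 3 of CD4 depletion; of the 9 genes, 0 passed with the block and 0 to 4 with libraries left out. Between CD4 depletion with anti-CTLA4 and IgG, 0 genes passed under every alternative run.

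The share of higher calls moved with scaling: 1210 higher and 3747 lower in labelled anti-CTLA4 against IgG became 2132 and 2050 with median-of-ratios scaling, 1928 and 2081 with quantile normalization and 70 and 6929 with homeostatic scaling. Against labelled anti-CTLA4, CD4 depletion with anti-CTLA4 had 2969 higher and 858 lower, which became 1455 and 1648, 1452 and 1460, and 7503 and 97.

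Signs turned as follows. In labelled anti-CTLA4 against IgG, quantile normalization gave Nr1h3 0.071, homeostatic scaling gave Abca1 -0.36, Nr1h2 -0.89, Soat1 -0.54 and Plin2 -0.21, and leaving out single libraries gave Nr1h2 -0.042 to 0.068. In CD4 depletion with anti-CTLA4 against labelled anti-CTLA4, median-of-ratios scaling gave Nr1h2 -0.23 and Plin2 -0.20, quantile normalization -0.13 and -0.10, and homeostatic scaling Abca1 0.61, Abcg1 0.075, Mylip 0.037, Soat1 0.71 and Ch25h 0.44, while leaving out single libraries gave Soat1 -0.42 to 0.046 and Plin2 -0.55 to 0.49. For CD4 depletion with anti-CTLA4 against IgG, leaving out single libraries gave Soat1 -0.043 to 0.35 and Mylip -0.0033 to 0.080. The cause was not tested.

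Whether replicate numbers pair the libraries could not be decided. Same-numbered deviations from the group means correlated at -0.125 between labelled anti-CTLA4 and IgG, and at -0.181 and -0.205 between CD4 depletion and IgG. Between CD4 depletion and labelled anti-CTLA4 the correlations were 0.078 and 0.123. In a group of 2 libraries the deviations mirror each other, so crossed numbers give the same correlation with the opposite sign. Crossing the numbers within labelled anti-CTLA4 and IgG, chosen after seeing the data, gave 5196 genes and 5 of the 9, against 4299 and 4 with the numbers as labelled in the same 4 libraries. With 2 libraries in 2 of the groups, leaving 1 out assumes that the lone library varies like the others.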
